A study of Mus musculus with 2 samples.

Results

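A total of 182 cells of the mouse testis, 7.13% of the 2552 cells measured, were classified as early meiotic prophase spermatocytes by their expression of 4 genes. For each cell, 6 scores were computed, each the mean of z-scored log2(1 + CPM) values (CPM, counts scaled to a total of 1000000 UMIs, the unique molecular identifiers that stand for single captured transcripts) over 4 genes. The members were chosen by measured values, namely cells whose highest score was that of Tex101, Gml, Tex12 and Sycp1 (the E score). The other 5 classes are called here by their letters: P (Pou5f2, D030056L22Rik, Ppp1r27, Tcam1; spermatocytes), S, R and T (genes of spermatids in successive stages) and L (Prm1, Prm2, Tnp2, Klk1b8; condensing spermatids).

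The study profiled testes of 2 wild-type C57Bl/6J Crl mice, male littermates aged 8 weeks, as 1 droplet library per mouse and without any sorting of cells. No treatment or mutant was compared, so that the 2 mice are the only replicates. Mouse 1 contributed 64 members among 1237 cells (5.17%, exact binomial 95% interval 4.01 to 6.56%) and mouse 2 contributed 118 among 1315 cells (8.97%, 7.48 to 10.6%). Members held 1235890 UMIs in mouse 1 and 2354860 in mouse 2. The median member had 15966.5 and 17498 UMIs, respectively, whereas the median cell of class P had 20559.5 and 24272. After removal of the ending that names the library, 0 barcodes were shared between the mice. These intervals cover counting error only.

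In the first meiotic prophase, homologous chromosomes are cut, paired and joined along their length by the synaptonemal complex, a zipper of lateral elements, transverse filaments and a central element. The prophase passes through leptotene, zygotene, pachytene and diplotene. In the male, the unpaired parts of the X and Y chromosomes are silenced in pachytene and gathered in the sex body.

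The label of early prophase held in part. Of 12 genes known from early prophase that the rule did not use, 8 had at least 100 UMIs over all cells, the minimum for a gene to be called measured here, and 6 of these had their highest level in the members in both mice. Sycp3, a lateral element protein, was at 1558 CPM in the members of mouse 1 and 1060 in those of mouse 2, against 394 and 362 in class P. Hormad1, a protein of the unsynapsed chromosome axis, was at 410 and 277 CPM, against 90.6 and 81.2 in class P. Sycp2, Meioc, Smc1b and Meiob were likewise higher in the members of both mice than in class P.

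Of the other 6 of these 12 genes, 5 had few UMIs in the members. Stra8, the retinoic acid target that initiates meiosis, had 35 UMIs in the members of mouse 1 and 4 in those of mouse 2, of which 33 and 2 lay in cells that also held markers of other cell types. Dmc1, the meiotic recombinase, had 8 and 10 UMIs. Its level of 6.47 and 4.25 CPM was above class P (0.60 and 0.27) but not above class L (6.54 and 7.73). Prdm9, which sets the sites of double-strand breaks, had 1 and 2 UMIs, Spata22 had 3 and 2, and Mei1 had 2 and 8. Rad51ap2, of strand exchange, was low but above class P, at 27.5 and 4.25 CPM (34 and 10 UMIs, of which 28 and 10 lay in cells without many markers of other cell types) against 0.60 and 0.40. Other genes of meiotic entry, such as Dazl and Ythdc2, were higher in the members. Genes known from pachytene were divided. Piwil1, the partner of pachytene piRNAs, was at 737 and 726 CPM against 165 and 190 in class P, and Hspa2, a chaperone of spermatocytes, was at 1935 and 1883 CPM against 1476 and 1540. Ldhc, a lactate dehydrogenase of pachytene and later stages, was at 6113 and 7208 CPM against 9620 and 10043. The members are therefore called Tex101/Sycp1-high cells below.

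**Figure D1:**
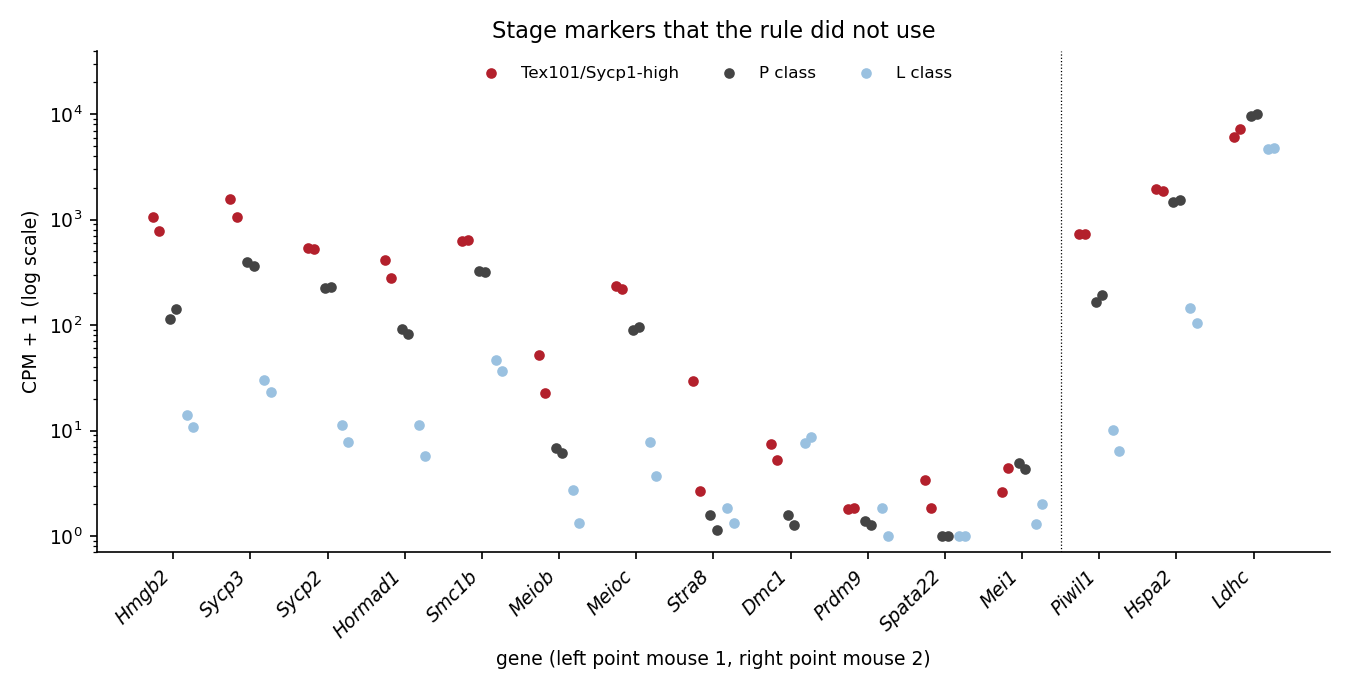
CPM + 1 on a log axis of 15 stage markers outside the rule in the Tex101/Sycp1-high cells (red), class P (dark grey) and class L (light blue), with 1 point per mouse. Of the 3 classes plotted, Hmgb2 to Meioc were highest in the Tex101/Sycp1-high cells, Dmc1, Prdm9, Spata22 and Mei1 lay below 10 CPM in them, and Ldhc, a pachytene marker right of the dotted line, was higher in class P.

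The score is a continuous range and the members are not a closed type. Of the 182 members, 155 had UMIs for all 4 genes, 20 for 3 and 7 for 2. The E score of the members ran from 0.09 to 2.76 with a median of 2.08, and 969 cells outside the class also had an E score above 0. The next highest score was P in 157 members (86.3%). The lead over the next score was under 0.25 in 24 members, while 63 cells outside missed membership by less than 0.25, 32 of them in class P. The 3 members closest to the boundary led by 0.019, 0.021 and 0.022, and the 3 closest outside missed it by 0.021, 0.024 and 0.044. When Tex101 was left out of the score, 196 cells were members, 177 of them shared (97.3% of the class and 90.3% of the new one), and their Tex101 level was 1456 and 1445 CPM, compared with 75.2 and 95.1 CPM in class P. Without Tex12, 201 cells were members, 166 of them shared (91.2% of the class and 82.6% of the new one), the lowest overlap of the 4 genes.

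**Figure D2:**
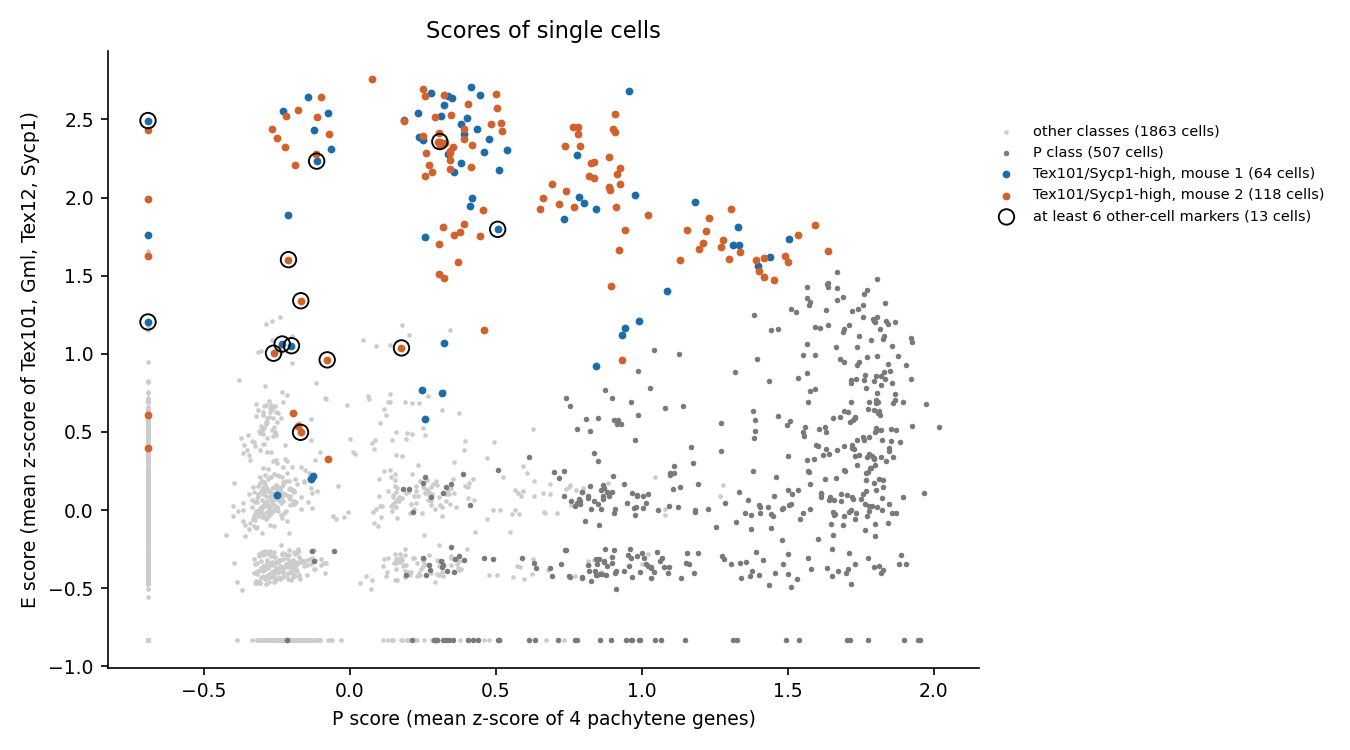
E score against P score of all 2552 cells (unitless means of z-scores), with the Tex101/Sycp1-high cells in blue (mouse 1) and orange (mouse 2), class P in dark grey, the other classes in light grey and members with markers of other cell types ringed. The members form a band from high E and low P scores towards class P, and both mice lie along the whole band.

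Some members carried RNA of other cell types. In 13 members (6 in mouse 1 and 7 in mouse 2), at least 6 markers of Sertoli cells, Leydig cells or spermatogonia had a UMI. These cells, called marked cells here, are 13 of 29 such cells in the series, and 5 of them had UMIs for all 4 genes of the E score. Scrublet called 25 doublets in all cells (0.980%), 6 of them members, and these were kept. All 7 measured Sertoli markers were higher in the members, with a summed level of 980 CPM in mouse 1 and 289 in mouse 2, which was 104 and 68.8 CPM without the marked cells. The most abundant was Clu, at 234 and 65.4 CPM, and at 11.2 and 4.41 CPM without the marked cells. Leydig markers summed to 47.7 and 73.0 CPM, led by Fabp3, and 0 of 6 measured were 2-fold higher. Peritubular and endothelial markers summed to 7.28 and 9.77 CPM, with Myh11, Col1a2 and Pecam1 at 0, and the immune and red blood cell markers to 4.85 and 13.2 CPM, with Ptprc, Csf1r and Cd74 at 0. Spermatid RNA was also present, since Prm1, a protamine of condensing spermatids, was at 3838 and 1728 CPM in the members, against 90093 and 67699 CPM in class L. The median mitochondrial share was 0.701% and 0.706% of UMIs, against 0.194% and 0.185% in class P. Of 9 cells in the series with over 5% mitochondrial UMIs, 5 were members (1 in mouse 1 and 4 in mouse 2), of which 2 were marked cells. The other 3, all of mouse 2, had 11.3, 12.1 and 14.2% mitochondrial UMIs, 7295 to 7474 UMIs in all and 1 or 2 Sertoli markers each. The cell at 12.1% also held 3 Leydig markers and had UMIs for 3 of the 4 genes of the E score. Without the cells over 5%, 3426 rows were higher in the 177 members left and 3338 lower. The part of marked cells, spermatid RNA or mitochondrial share in the results was not tested beyond the values without the marked cells that are given beside them.

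The genes that chose the cells are given as a description. Tex101 encodes a surface glycoprotein of germ cells and lies at chr7:24668007-24676675 (GRCm38, minus strand). It was at 1628 and 1528 CPM in the members, against 72.8 and 94.7 in class P and 29.9 and 16.5 in class L. With each cell thinned to 5000 UMIs, 93.8% and 90.7% of the members had a Tex101 UMI (98.4% and 99.2% without thinning), against 10.5% and 6.42% in class L (28.5% and 19.3%), a class of condensing spermatids where the median depth was 11163 and 12265.5 UMIs. Gml, of the same family of anchored surface proteins, was at 444 and 430 CPM against 18.4 and 20.96 in class P. Sycp1, the transverse filament of the synaptonemal complex, was at 1340 and 1092 CPM against 93.5 and 107. Tex12, of its central element, was at 243 and 234 CPM against 10.5 and 15.3. Hmgb2, a chromatin protein given as a marker and not used in the score, was at 1061 and 781 CPM, and at 1027 and 776 without the marked cells, against 114 and 140 in class P.

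Stretches of up to 150 bases before the RefSeq start of Tex101, Tex12, Sycp1 and Sycp3 are shown because these genes were high together. They are from RefSeq, read 5′ to 3′ along the gene, at chr7:24672051-24672200 (minus strand), chr9:50561326-50561418 (minus), chr3:102936101-102936250 (minus) and chr10:88459437-88459568 (plus) of GRCm38.p6. Bases next to the start that an annotated GENCODE exon of the gene covers were left out, so that 93 bases are shown for Tex12 and 132 for Sycp3. The stretch of Tex101 precedes the start at 24672050, which GENCODE also gives, and lies in an intron of its longer transcripts, which begin at 24676675. Capitals mark CACGTG (the E-box), GCGGGAA (a form bound by E2F proteins), CCAAT and AACNGTT (a form bound by MYB proteins), searched on both strands. None of the matches shown overlap.
Tex101: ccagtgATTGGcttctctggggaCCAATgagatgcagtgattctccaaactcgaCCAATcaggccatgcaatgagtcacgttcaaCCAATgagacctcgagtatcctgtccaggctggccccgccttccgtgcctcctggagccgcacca
Tex12: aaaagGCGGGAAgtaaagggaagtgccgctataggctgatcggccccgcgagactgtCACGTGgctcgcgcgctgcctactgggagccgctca
Sycp1: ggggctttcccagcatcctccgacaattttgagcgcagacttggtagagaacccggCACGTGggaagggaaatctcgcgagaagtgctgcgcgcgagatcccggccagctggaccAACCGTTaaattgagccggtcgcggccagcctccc
Sycp3: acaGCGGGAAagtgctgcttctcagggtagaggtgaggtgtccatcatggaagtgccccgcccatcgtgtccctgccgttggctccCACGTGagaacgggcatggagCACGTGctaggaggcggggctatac
CACGTG was present in the promoters (250 bases before to 50 after the start) of Tex12, Sycp1, Sycp3, Syce2 and 4930447C04Rik (Six6os1), 5 of the 8 measured synaptonemal complex genes, and in 985 of 8743 measured genes that had a RefSeq promoter (11.3%). The promoter of Tex101 held CCAAT 4 times, a motif found in 43.3% of the genes. Among the 342 genes at least 8-fold above the mean of the other classes in both mice, 255 had a promoter, of which 43 held CACGTG (16.9%) and 34 held GCGGGAA (13.3%, against 9.30% of all). TGACGTCA, the cAMP response element, was present in 1 of them (0.39%, against 3.92% of all), AACNGTT in 9 (3.53%, against 4.68%), CCAAT in 98 (38.4%) and GTTGCCATG, part of the form bound by RFX proteins, in 2 (0.78%, against 1.25%). A match describes letters in a window and no binding.

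Genes were then compared between classes. A gene was called higher or lower when its CPM, summed per mouse and class, differed at least 2-fold from the mean of the other 5 classes in both mice, on the log2(CPM + 1) scale, which understates the change of low genes. Since the classes were cut from the same expression values, these are descriptions without a test. Of 12604 measured rows, 3479 (27.6%) were higher in the members, 3320 (26.3%) were lower, and 3561 (28.3%) had their highest level in them. Against class P, 2029 rows (16.1%) were 2-fold higher and 1132 (8.98%) lower. With the ratios centred on their median, 3083 rows were higher and 3603 lower than in the other classes. Against class P, the centred counts were 1449 higher and 1599 lower, so the balance of higher and lower rows turned in both comparisons. The median over all measured rows of the log2 ratio was 0.14 in mouse 1 and 0.15 in mouse 2 against the other classes, and 0.30 and 0.21 against class P. Over the 8 lists of meiotic genes that follow, 48 of 81 measured genes outside the rule were higher and 3 lower, with a median log2 ratio of 1.71 beside 0.14 over all rows. The lists overlap and the choice of cells used meiotic genes, so their direction is no independent evidence.

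**Figure D3:**
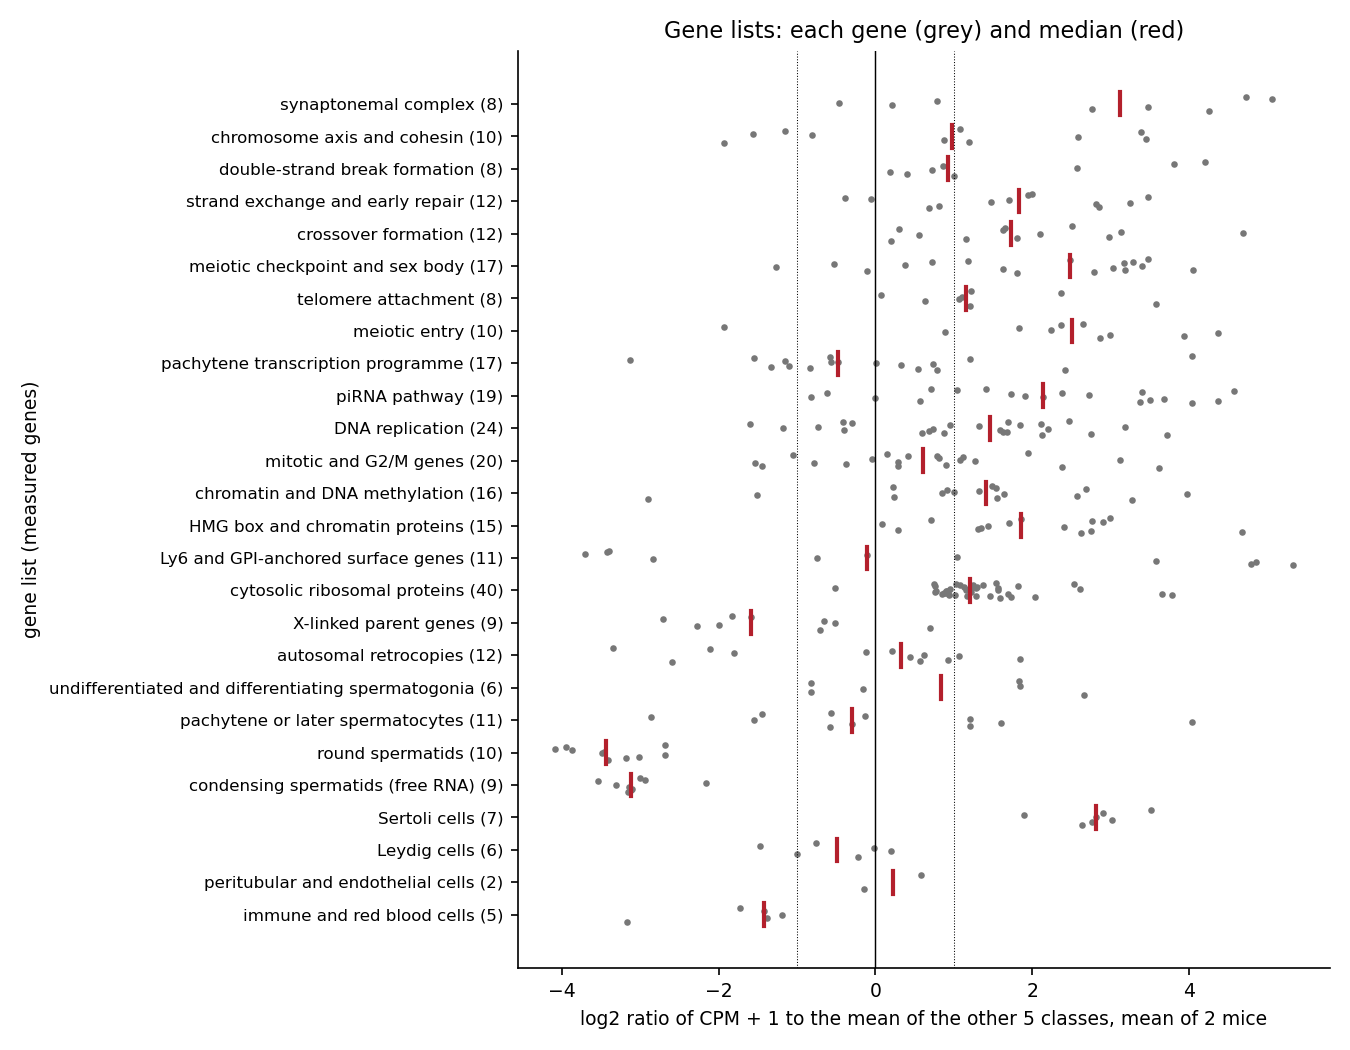
Log2 ratio of CPM + 1 in the Tex101/Sycp1-high cells to the mean of the other 5 classes, averaged over 2 mice, for each measured gene (grey) of 26 lists, with the median of each list in red and 2-fold changes as dotted lines. Meiotic, piRNA and HMG box lists lie to the right, spermatid lists below -3, and the Sertoli list at 2.81, which was -0.20 without the marked cells. Genes of the rule, which chose the cells, are drawn in every list that holds them. The drawn median of the synaptonemal complex list is thus 3.12, beside 1.77 outside the rule. That of the Ly6 list is -0.10, beside -0.74.

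Among the synaptonemal complex genes outside the rule, 3 of 6 were higher (median log2 ratio 1.77), namely Sycp2, Sycp3 and 4930447C04Rik. Against class P, 5 of 6 were higher, beside 16.1% of all measured rows. Syce2, of the central element, was at 177 and 149 CPM, above class P (31.3 and 37.7) and below the mean of the other classes (204 and 248). Syce1 was at 753 and 858 CPM, against 1137 and 1099 in class P. Of 10 axis and cohesin genes, 4 were higher and 2 lower (median 0.97), beside 27.6% and 26.3% of all measured rows. Stag1, a cohesin subunit, was at 104 and 81.5 CPM against 18.3 and 18.2 in class P. Rec8, the meiotic kleisin, was at 12.1 and 7.64 CPM, below the mean of the other classes (40.4 and 38.7).

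Of 8 genes for the formation of double-strand breaks, 3 were higher and 0 lower (median 0.93), beside 27.6% and 26.3% of all measured rows. Spo11, which cuts the DNA, was at 108 and 116 CPM against 123 and 130 in class P, while Ankrd31, its cofactor, was at 155 and 156 against 56.0 and 55.04. Hells, a chromatin remodeler, was at 112 and 87.5 CPM against 9.93 and 15.3. Of 12 genes for strand exchange and early repair, 8 were higher and 0 lower (median 1.82). Rpa2, a subunit of the protein that coats single-stranded DNA, was at 61.5 and 39.5 CPM against 8.44 and 8.49 in class P, and its partner Rpa1 was at 69.6 and 68.4 CPM against 278 and 239. These 2 subunits of 1 complex stood on opposite sides of class P.

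Of 12 crossover genes, 8 were higher and 0 lower (median 1.72). Ccnb1ip1 (HEI10), a ligase at crossover sites, was at 45.3 and 40.3 CPM against 1.99 and 1.86 in class P, and Mlh3, which resolves crossovers, at 76.1 and 70.5 CPM against 37.6 and 38.1. Msh4, which stabilises recombination intermediates was at 23.5 and 8.92 CPM, against a mean of the other classes of 14.4 and 11.1, above it in mouse 1 and below it in mouse 2. Of 17 checkpoint and sex body genes, 11 were higher and 1 lower (median 2.48). Topbp1, an activator of the kinase ATR, was at 46.1 and 67.1 CPM against 5.06 and 12.9 in class P. H2afx, the histone that is phosphorylated over the sex body, was at 292 and 238 CPM against 75.2 and 79.2. Of 8 genes for telomere attachment, 4 were higher and 0 lower (median 1.15), beside 27.6% and 26.3% of all measured rows. Terb2, of the complex that ties telomeres to the nuclear envelope, was at 27.5 and 31.0 CPM against 3.48 and 4.24.

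Of 10 genes of meiotic entry, 8 were higher and 1 lower (median 2.51). Dazl, a germ cell RNA-binding protein, was at 430 and 248 CPM against 8.84 and 11.4 in class P, and at 373 and 235 without the marked cells. Ythdc2, the helicase that works with MEIOC, was at 63.9 and 68.4 CPM against 5.76 and 6.10. Dmrt1, a factor of spermatogonia and Sertoli cells, was at 10.5 and 5.52 CPM, but at 1.73 and 0.88 without the marked cells. Of 16 genes of the pachytene transcription programme outside the rule, 3 were higher and 5 lower (median -0.23), beside 27.6% and 26.3% of all measured rows. Spz1, a factor of later stages, was at 167 and 133 CPM, below the mean of the other classes (1226 and 1413).

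The piRNA pathway protects the germ line from transposons. Of its 19 measured genes, 14 were higher and 0 lower (median 2.13). Tex19.1, which restrains retrotransposons, was at 44.5 and 37.4 CPM against 0.99 and 1.99 in class P. Mael was at 1500 and 1981 CPM against 1686 and 1854, and Tdrd7 was at 71.2 and 83.2 CPM, below class P (164 and 145). Rows for repeats, which the reference held beside genes, took 2.191% and 2.171% of the members' UMIs, against 1.25% and 1.34% in class P. Of 234 measured repeat rows, 68 (29.1%) were higher, beside 27.6% of all measured rows, 14 (5.98%) were lower, beside 26.3%, and 105 (44.9%) had their highest level in the members, beside 28.3%. The row of the B2_Mm2 element was at 1232 and 1292 CPM (985 and 1036 without the marked cells) against 415 and 412 in class P, and the row of BC1 at 3134 and 2313 CPM (2475 and 2058) against 1211 and 1039. A read from a repeat inside a gene's transcript cannot be told apart from one of an element transcribed by itself.

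Genes of replication and of division were read as separate lists, without a test between them. Of 24 replication genes, 13 were higher and 1 lower (median 1.46), and 8 were higher and 3 lower than in class P. Mcm3, of the replicative helicase, was at 30.7 and 16.6 CPM against 0.60 and 0.80 in class P. Gmnn, the inhibitor of replication licensing, was at 177 and 179 CPM against 132 and 133. Of 20 mitotic and G2/M genes, 7 were higher and 2 lower (median 0.60), and 2 were higher and 6 lower than in class P. Over all measured rows, 27.6% were higher and 26.3% lower, and 16.1% were higher and 8.98% lower than in class P. Plk1, the kinase that drives the exit from prophase, was at 43.7 and 33.1 CPM against 210 and 208 in class P. Mki67 was at 31.6 and 33.97 CPM against 5.26 and 6.90.

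Of 16 genes of chromatin and DNA methylation, 9 were higher and 2 lower (median 1.40). Cbx1, a heterochromatin protein, was at 342 and 267 CPM against 59.6 and 66.4 in class P. Of 15 HMG box and related chromatin genes, 12 were higher and 0 lower (median 1.86). H3f3b, which encodes histone H3.3, was at 3762 and 3753 CPM against 562 and 687, while H3f3a, which encodes the same protein, was at 883 and 982 CPM against 780 and 882. Of 40 cytosolic ribosomal protein genes, 25 were higher and 0 lower (median 1.21), beside 27.6% and 26.3% of all measured rows. In the members, 39 of the 40 had their highest level, beside 28.3% of all measured rows. Against class P, 7 of the 40 were 2-fold higher and 0 lower (median 0.77), beside 16.1% and 8.98%. Rpl10a was at 327 and 339 CPM against 75.2 and 84.2 in class P. Of 9 Ly6 and GPI-anchored surface genes outside the rule, 2 were higher and 4 lower (median -0.74), beside 27.6% and 26.3% of all rows. Ly6k, a partner of TEX101, was at 712 and 608 CPM against 109 and 122, and Cd59a was at 3.24 and 1.70 CPM, below the mean of the other classes (43.5 and 42.2).

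Markers of other germ cells were read in the same way. Of 6 measured spermatogonia markers, 3 were higher, and 2 without the marked cells, while Nanos2, Lin28a and Upp1 had no UMI in the members. The summed level was 608 and 619 CPM, most of it Dmrtb1 (513 and 541 CPM, against 1649 and 1589 in class P). Of 7 markers of pachytene or later spermatocytes outside the rule, 2 were higher and 3 lower (median -0.56), and the same counts were found against class P (median -0.57). Over all measured rows, the shares were 27.6% higher and 26.3% lower, and 16.1% and 8.98% against class P. All 10 round spermatid markers and all 9 condensing spermatid markers were lower (medians -3.43 and -3.12), 4 of the former and 3 of the latter being genes of the rule.

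Outside the rule and the lists, the genes with the highest ratio in both mice, among those with at least 100 UMIs in the members, were Chd3os, Exosc7, Maz, 4632427E13Rik, Rpia, Ccne2, Tmed9, Ssb, Tubgcp5, Clock, Tm2d3, Ccdc61, B3galnt1, Gm21269 and Pex7. Exosc7, a subunit of the RNA exosome, was at 85.8 and 97.2 CPM in the members against 3.28 and 5.84 in class P, and Maz, a zinc finger factor, at 40.5 and 57.3 CPM against 0.79 and 0.66. Rpia, an enzyme of the pentose phosphate pathway, was at 104 and 79.0 CPM against 4.27 and 5.17. Ccne2 (cyclin E2), a partner of CDK2, was at 209 and 222 CPM against 21.2 and 28.6. Gm21269, a long noncoding RNA, was at 469 and 569 CPM against 98.3 and 137. Among these 15, the level of Ssb, the La protein, dropped most without the marked cells, from 256 to 223 CPM in mouse 1. Chd3os, on the plus strand at chr11:69340461-69342641 (GRCm38), was at 115 and 126 CPM against 2.98 and 6.23.

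The genes with the lowest ratios were Gm15738, Samt3, Gm4275, Slc10a2, Hsfy2, Dyrk4, Tmem144, Rnf148, 1700031L13Rik and BC048562. Samt3, an X-linked gene, had no UMI in the members, which allows up to 2.43 and 1.27 CPM, against a mean of 19.11 and 23.1 CPM in the other classes. Hsfy2 was at 8.09 and 7.64 CPM against 172 and 194. In class P, Hsfy2 was at 3.18 and 7.56 CPM, so that the gene was low in both spermatocyte classes. Ratios were also read across animals. With each mouse taken alone, 3924 rows were at least 2-fold higher in the members of mouse 2 and 3901 in those of mouse 1. The 100 genes with the largest ratio in mouse 1 were at least 2-fold higher in mouse 2 in 100 cases, and the same held for 100 genes taken from mouse 2, with medians of 3.843 and 4.005 on the log2 scale. The E genes chose the cells in both mice, so this is a description and not a test.

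The X chromosome took 0.394% of the members' UMIs in mouse 1 and 0.234% in mouse 2. In class P it took 0.150% and 0.138%, in class S 0.726% and 0.793%, and in class L 1.74% and 1.71%. The share of the members was thus 2.62 and 1.69 times that of class P, and 1.95 and 1.34 times without the marked cells. The medians over single cells, 0.1998% and 0.153%, lay closer to class P (0.139% and 0.149%). Of 343 measured X-linked genes, 229 (66.8%) were lower than in the other classes, against 25.3% of 11926 autosomal genes. Relative to class P, 57 X-linked genes (16.6%) were higher, and 13 (3.79%) without the marked cells, against 16.2% and 14.8% of autosomal genes. Lower than in class P were 1 X-linked gene (0.29%) and 9.39% of autosomal genes. The median log2 ratio to class P without the marked cells was 0.51 and 0.24 for X-linked genes, against 0.24 and 0.18 for autosomal genes.

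Among X-linked genes with at least 100 UMIs in the members of both mice together, those with the highest ratio to class P, by the smaller of both mice, were Rpl36a, Ndufa1, Prdx4, Tmsb4x, Cypt3, 4930570D08Rik, Akap4 and Hypm, of which the last 3 were under 2-fold in mouse 2. Ndufa1, a subunit of respiratory complex I, stood apart at 282 and 139 CPM, and at 231 and 136 without the marked cells, against 17.3 and 17.4 in class P. Rpl36a had 48 and 58 UMIs, of which 31 and 46 lay in the marked cells, and Tmsb4x had 86 and 63, of which 75 and 40 did. Prdx4, Cypt3, 4930570D08Rik, Akap4 and Hypm were far higher in class L, where Akap4, a sperm tail protein, was at 1840 and 2050 CPM against 91.4 and 77.3 in the members. Of 9 measured X-linked genes listed as parents of autosomal retrocopies, 0 were higher and 5 lower than in the other classes (median -1.58). Over all measured X-linked genes, the shares were 4.37% and 66.8%. Against class P, 5 of these 9 were higher, and 0 without the marked cells. Of 12 measured genes on the list of retrocopies, 2 were higher and 4 lower (median 0.32), beside 28.3% and 25.3% of autosomal genes. That list was drawn up with Actl7a, Actl7b, Taf9 and Uba1y, which are not autosomal retrocopies of the X-linked genes listed. Cetn1, a retrocopy that encodes a centrin, was at 1384 and 1569 CPM.

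**Figure D4:**
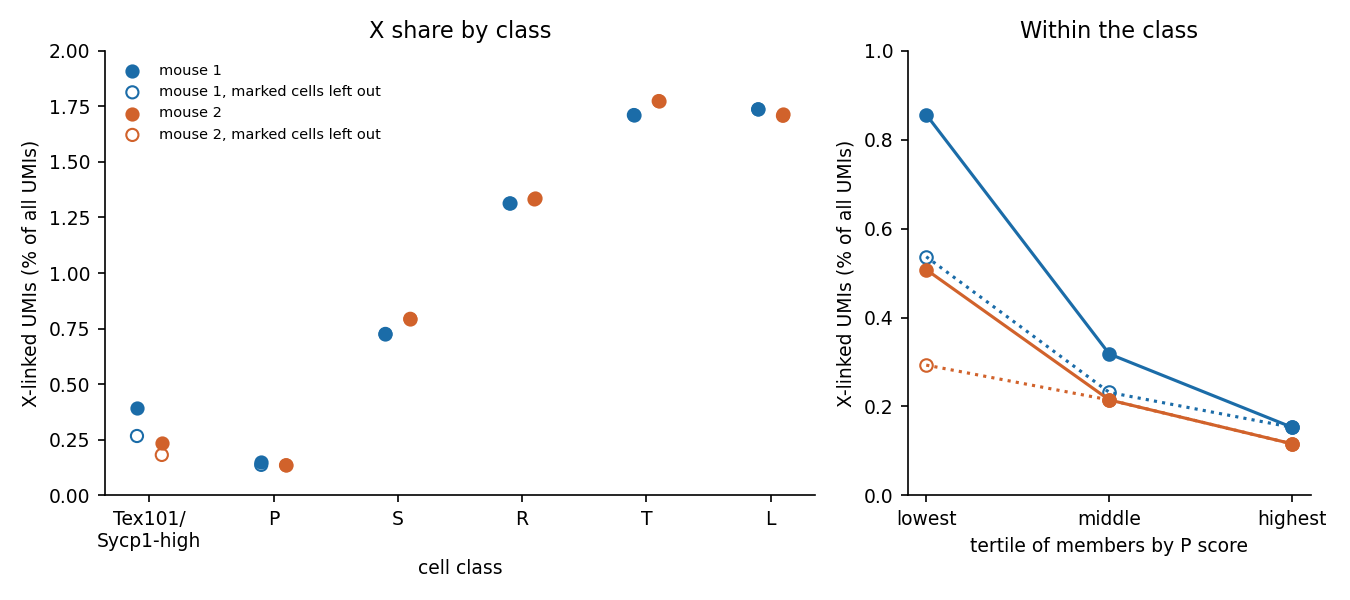
Share of X-linked UMIs in percent of all UMIs by class (left) and by tertile of members ranked by P score (right), for each mouse, with all cells (filled) and without the marked cells (open). The share of the Tex101/Sycp1-high cells lay above that of class P and below the spermatid classes, and within the class it declined from the lowest to the highest tertile in both mice.

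Members were ranked within each mouse by their P score, which runs towards the pachytene class, and cut into tertiles of 22, 21 and 21 cells in mouse 1 and 40, 39 and 39 in mouse 2. From the lowest to the highest tertile, the X share went from 0.856% over 0.318% to 0.153% in mouse 1, and from 0.508% over 0.215% to 0.116% in mouse 2. Without the marked cells, the values were 0.537%, 0.232% and 0.153% in mouse 1 and 0.293%, 0.215% and 0.116% in mouse 2. The median depth moved too, from 14253 to 25218 UMIs per cell in mouse 1 and from 12042 to 29768 in mouse 2, and the share of repeat rows went from 2.72% to 1.75% and from 2.95% to 1.81%. Spermatid RNA fell along the same tertiles, with Prm1 going from 9775 to 1394 CPM in mouse 1 and from 3524 to 993 in mouse 2. The part of depth or of spermatid RNA in these values was not tested.

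Of 5088 genes with at least 100 UMIs in the class, the genes of the 6 scores left out, 116 (2.28%) were at least 2-fold higher in the highest than in the lowest tertile in both mice and 375 (7.37%) at least 2-fold lower. This balance depended on the ranking, since tertiles by the P minus E score gave 487 higher and 461 lower. Among these 5088, the largest increases, by the smaller of both mice, were those of 4930581F22Rik, Gfra4, Gorasp1, Phf2, Arhgap20, Mroh2a, Gm8922 and 1700026J12Rik. Gfra4, a receptor of the GDNF family, went from 17.9 to 90.0 CPM in mouse 1 and from 5.71 to 56.4 in mouse 2. Phf2, a histone demethylase, went from 20.9 to 84.2 CPM and from 13.3 to 72.8.

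The largest decreases were those of Cst12, Cst9, Defb19, Marcksl1, Clu, Prss50, Sparc and the retrovirus row ERVB4_1B-I. Prss50, a protease of the testis, went from 158 over 81.9 to 1.91 CPM in mouse 1 and from 79.9 over 26.03 to 0 CPM in mouse 2. Its log2 difference was -5.76 in both mice without the marked cells. Cst12, Cst9, Defb19 and Clu are Sertoli genes, and their differences of -4.68 to -6.02 became -1.53 to 2.51 without the marked cells, 5 of which lay in the lowest tertile of mouse 1 and 7 in that of mouse 2. That of ERVB4_1B-I became 2.81 and -1.26. Among the lists, all 6 Sertoli genes and all 5 condensing spermatid genes with enough UMIs were lower in the highest tertile, as were 4 of 12 HMG box and chromatin genes, 3 of 16 mitotic genes, 2 of 6 axis and cohesin genes and 2 of 3 round spermatid genes. Without the marked cells, the counts were 3 for the Sertoli, 5 for the condensing spermatid, 2 for the HMG box, 2 for the mitotic, 2 for the axis and 3 for the round spermatid genes, beside 335 (6.58%) of the 5088 genes lower and 86 (1.69%) higher. Of 12 genes of the pachytene transcription programme, 1 (Ovol2) was higher in the highest tertile, and without the marked cells 0 were higher and 1 lower.

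**Figure D5:**
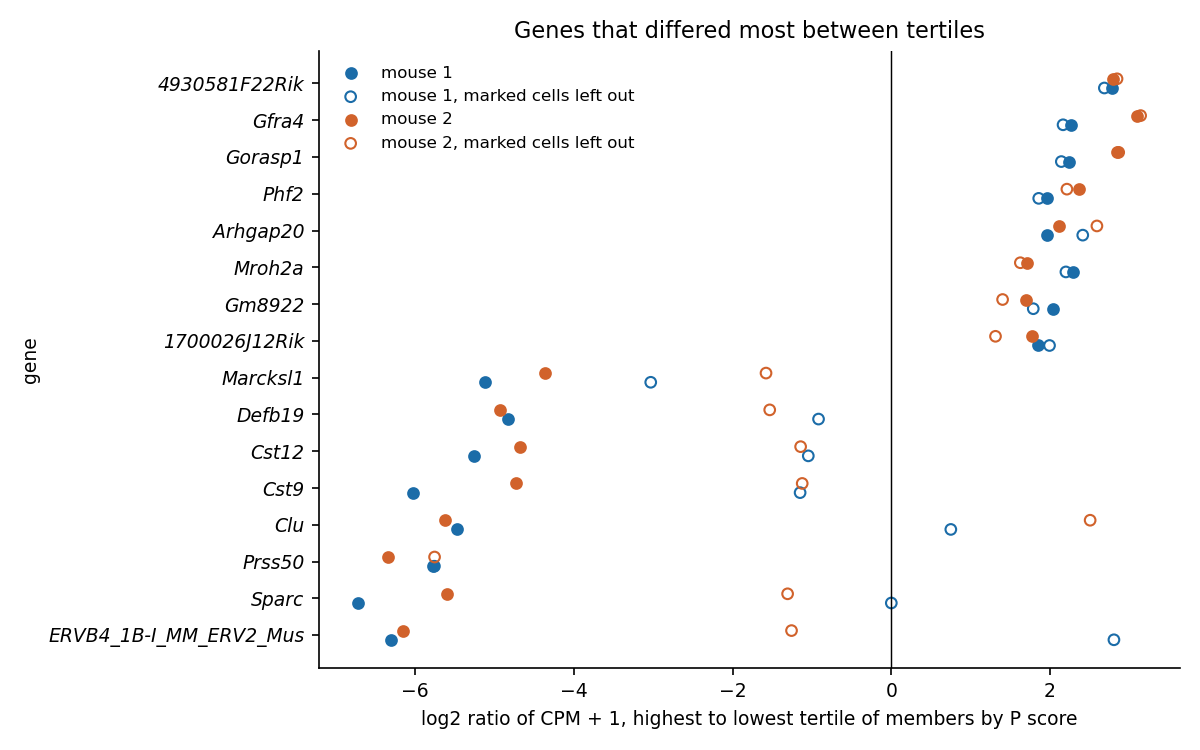
Log2 ratio of CPM + 1 between the highest and the lowest tertile of members ranked by P score, for the 8 genes outside the scores with the largest increase and the 8 with the largest decrease, in each mouse, with all members (filled) and with tertiles formed again without the marked cells (open). The open points of Prss50 stay at -5.76, and those of Clu, Sparc and ERVB4_1B-I lie near or above -1.31.

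Within the class, the mice differed 2-fold in few genes. Of 5099 genes with at least 100 UMIs in the class, the genes of the scores included, 25 were 2-fold higher in mouse 2 and 48 in mouse 1. The widest differences were those of Taf10, Chic2, Rnf187, Marcksl1 and Cst12. Taf10, a subunit of the general transcription factor TFIID, was at 50.2 CPM in mouse 1 and 256 in mouse 2, Chic2 was at 70.4 and 338 CPM, and Rnf187 at 63.1 and 280 CPM. These 3 genes also differed between the mice in class P, where Taf10 was at 141 and 231 CPM, Chic2 at 84.7 and 273 CPM and Rnf187 at 76.5 and 291 CPM. Marcksl1 and Cst12 were higher in mouse 1, where 54 of 78 and 129 of 137 UMIs lay in the marked cells. Without the marked cells, Marcksl1 was at 20.7 CPM in mouse 1 and 4.41 in mouse 2, a log2 difference of -2.01 beside -1.98 with them, whereas that of Cst12 was -0.67 beside -1.95.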

How the data were processed

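Droplet libraries were prepared from the testes of 2 mice, 1 library each. Per the labels and the study's methods, the authors made the reads with bcl2fastq 2.17.1.14 and counted them with Cell Ranger 2.0.0 on a repeat-masked GRCm38 genome with Ensembl release 89 and RepBase sequences, downsampled the deeper library and deposited 1 matrix of whole UMI counts for both mice, not normalized. Cells were assigned to mice by the ending of the barcode. All 2552 cells and 51868 rows were kept. Depth was 27450497 UMIs in mouse 1 and 30302332 in mouse 2.

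Counts were summed per mouse and class and scaled to CPM with a pseudocount of 1. A row was measured with at least 100 UMIs over all cells. The members came from the values compared, so no model was fitted and no p-value is given. Doublets were called with scrublet in scanpy 1.11.5 and kept. Thinning drew 5000 UMIs per cell (seed 42). Poisson limits for a count of 0 used 3 counts. Positions came from GENCODE M21 and RefSeq GRCm38.p6, and 8743 of 12365 measured symbols had a RefSeq promoter. The class, the gene lists and the named genes were chosen with earlier results of these data known. Named were the rule genes and Hmgb2, per list the 2 most abundant genes and those with the highest and lowest ratio, the 15 highest and 10 lowest genes outside the rule and lists, 8 X-linked genes by their ratio to class P, 8 genes per direction between tertiles and 5 between mice. Genes outside the lists, X-linked genes and those between tertiles or mice needed at least 100 UMIs in the class (the 10 lowest, in the other classes), and genes of the scores were not eligible except between mice. Stag1, Sycp2, Syce1, Ythdc2, Dmrt1, Ovol2 and the repeat rows were named after their values were seen. The row 4930558J22Rik, an antisense RNA first listed for Spo16 by mistake, was taken off the crossover list after its values were seen, and Spo16 was not analysed here. The definition of marked cells was added after seeing the data. Alternatives to the score, filters, pseudocount and scaling were run. The procedure was tested on simulated data. Scripts ran in Python 3.11.15 (pandas 2.3.3, numpy 2.4.6, scipy 1.17.1), and figures were drawn in matplotlib 3.10.9.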

Additional observations from a re-analysis of the deposited data

How the results depend on the processing

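Membership numbered 124 to 257 cells when the score, its genes or the cells were changed one at a time, 257 being the count after thinning to 5000 UMIs and 124 the count without cells holding at least 3 other-cell markers. Of the meiotic genes outside the rule, 39 to 56 were higher over all alternatives run, beside 48 as reported, the 2 highest counts coming from lower UMI minimums that add genes. Thinned scores gave 1933 rows lower than the other classes, 347 lower than class P and 1 lower meiotic gene. The last count, 3 as reported, was also 1 with the score without Tex101 or without Tex12, with the mean of per-cell CPM and with a pseudocount of 10, which also gave 2068 higher and 1826 lower rows, and 892 above and 580 below class P. The ratio of the X share to that of class P, 2.16 as a mean of both mice, was 1.46 without cells holding at least 3 other-cell markers and 1.23 from medians over cells, and 1.69 to 2.62 with 1 mouse left out. With 1 mouse left out, the class held 64 to 118 cells, 3 to 5 meiotic genes were lower, 2427 to 3435 rows were above class P, 323 to 492 genes were higher in the highest tertile and 571 to 660 lower, since a call then needs 1 mouse only. Tertiles by the P minus E score gave 487 increases and 461 decreases, beside 116 and 375 as reported. Thinning to 5000 UMIs gave 39 increases and 59 decreases among fewer genes with enough UMIs. Without cells holding at least 3 other-cell markers, the log2 ratios to the other classes of Cst12, Clu and Defb19 reversed to -0.39, -0.45 and -0.48, and without those holding at least 6, an alternative chosen after seeing the data, to -0.23, -0.20 and -0.36. No other named gene reversed in 2970 values recomputed. The cause of these shifts was not tested where the setting does not show it. Classes were compared within each mouse throughout, so that the reported calls are paired by mouse. The depth per class limits genes with few UMIs, and 2 mice limit the spread.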
